A study of Mus musculus with 2 samples.

Results

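Complement is a cascade of plasma proteins that tags, lyses or clears microbes and damaged cells. It is started by antibody (the classical pathway), by sugars on a surface (the lectin pathway) or by spontaneous turnover (the alternative pathway), and these routes meet in a terminal pathway that builds a pore in the target membrane. Hepatocytes make most of the plasma components, whereas C1q, properdin and the receptors for complement fragments are known mainly from macrophages and other myeloid cells. A list of 34 mouse complement genes was followed here, taken by pathway role. A member was included through probe sets that the array annotation assigns to its symbol alone, which gave 54 probe sets for 31 of the 34 genes, whereas the whole array covers 18193 genes in this way. C3, C4b and Cfd have no such probe set in the annotation used and were not analysed here.

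The data come from liver of mouse embryos at E14.5 on the mixed strain background NMRI/C57Bl6, with 1 Affymetrix array for a wild-type sample and 1 for a Prox1 conditional knockout sample. In the knockout, labelled Prox1 f/f;Foxa3Cre, the floxed Prox1 alleles are recombined by a Cre that Foxa3, an endoderm gene, drives. Blood cells and mesenchyme of the organ arise outside the endoderm. The comparison asks how gene expression in fetal liver differs when Prox1, a homeodomain transcription factor of liver progenitors, is deleted in this lineage. The labels do not state how many embryos gave each sample. There were no replicates, so each signal below is a single measurement, no test between genotypes was possible, and each difference is between these 2 samples. The values are MAS5 signals, a linear brightness per probe set scaled to the same trimmed mean on both arrays. Genes under a floor of 112.6, the median of the knockout array, on both arrays were not ranked. Where 1 of the arrays was under the floor, the fold is a lower limit and is given as "at least". A gene is described by its brightest probe set unless another is named. Levels of different genes are not compared, since probe sets differ in how strongly they hybridize. Signals summed over a marker list are set only against the same sum on the other array, and bright probe sets weigh most in them.

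On its brightest probe set Prox1 had a signal of 340.3 (wild type) and 221.8 (knockout), a log2 difference, always knockout minus wild type, of -0.62. Its other probe sets read 205.9 and 111.8, at least 1.83-fold lower, and 175.4 and 66.7, at least 1.56-fold lower. Both were under the floor in the knockout. The arrays also differed in sex-linked genes, with Xist going from 11467 to 365.7 and Y-linked Eif2s3y from 0.87 to 1972. The part of this sex difference in the results on complement was not tested. Albumin (Alb), which defines the hepatic lineage, read 32396 and 33186, so the labelled tissue carried its marker on both arrays. In whole liver RNA, fewer cells of a type and less RNA per cell cannot be told apart.

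Listed members past the 2-fold mark on their brightest probe set were all lower in the knockout. The list was chosen with earlier results of these data known. Pathway genes outside it, which include Fcnb at 3.49-fold higher, are given further below. Of 30 members measured on at least 1 array, 10 were at least 2-fold lower and 0 at least 2-fold higher. Among all 11397 measured genes, 2.13% were at least 2-fold lower and 3.27% at least 2-fold higher. The 10 lower members fall in the classical, lectin and terminal pathways and among the inhibitors, with 0 of 2 in the alternative pathway and 0 of 2 receptors. They are C1ra and C1s1 (classical), Mbl1 and Masp2 (lectin), Hc, C8a, C8b and C8g (terminal), Serping1 (fluid-phase inhibitor) and Cd59a (membrane inhibitor). The median log2 difference was -0.62 over the 30 measured members and 0.03 over all measured genes, with 23 members below 0 and 7 above, the former including Masp1 and Cfp, which lie above 0 as the median of their probe sets. Of the 30, 3 (Mbl2, C3ar1 and C5ar1) were above the floor on 1 array only, so their differences are bounds, and C6 was below the floor on both arrays. Over the 27 members measured on both arrays, 10 were at least 2-fold lower, 22 were below 0 and the median was -0.63.

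**Figure D1:**
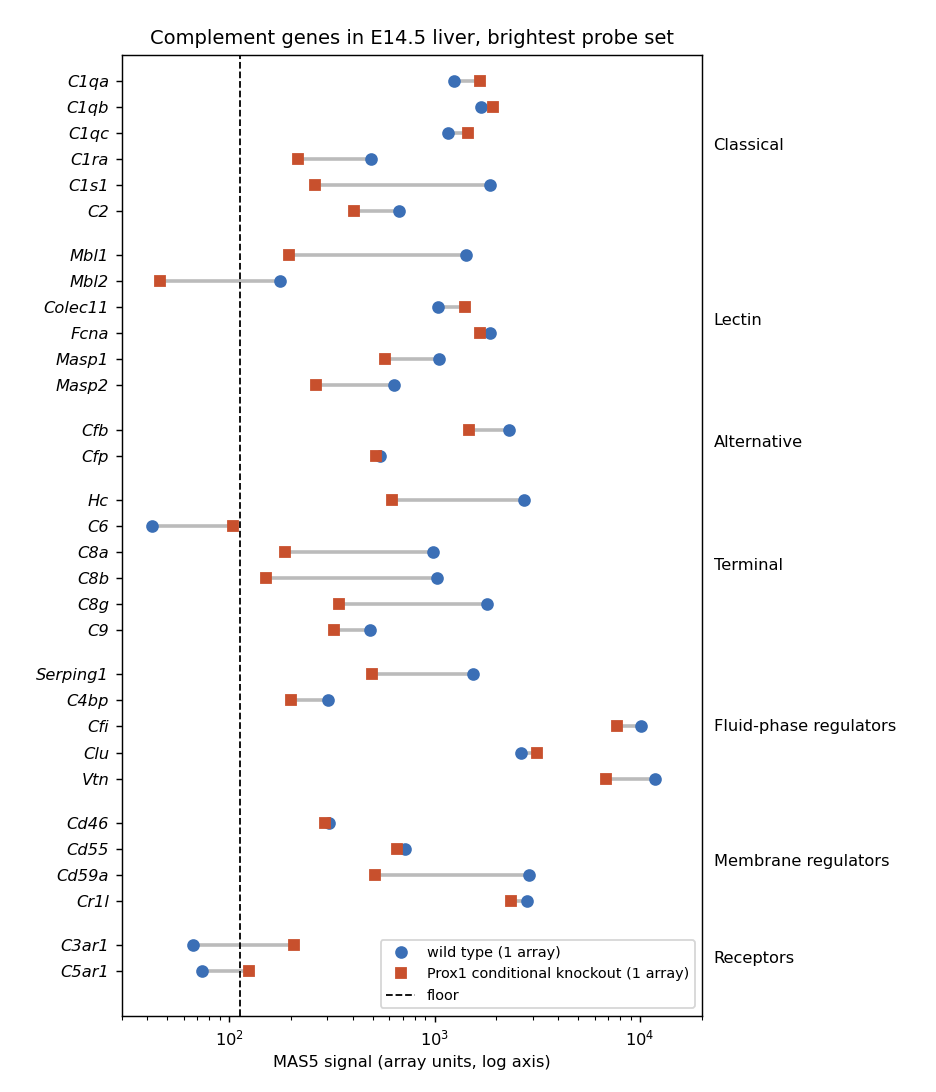
MAS5 signal (log axis, array units) of the brightest probe set of each of 31 complement genes, by role, on the wild-type array (blue circles) and the Prox1 conditional knockout array (red squares); the dashed line is the floor of 112.6. The widest gaps to the left of wild type belong to C1s1, Mbl1, Hc, the C8 genes and Cd59a, while C3ar1, C6 and C5ar1, which are under the floor in wild type, lie to the right, as do the C1q genes, Clu and Colec11 by less; positions of different genes are not comparable.

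The C1 complex of the classical pathway consists of C1q, which recognises bound antibody, and the proteases C1r and C1s, and its parts differed in opposite directions. The C1q chains were slightly higher in the knockout. C1qa read 1238 in wild type against 1661 in the knockout. C1qc read 1157 and 1456. C1qb read 1675 and 1931, and its other 2 probe sets were also above 0. The log2 differences of the chains lay between 0.20 and 0.42 on the brightest probe sets, well under the 2-fold mark.

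The proteases were lower. C1ra, which encodes the C1r protease that activates C1s, read 489.3 in wild type against 215.4 in the knockout, 2.27-fold lower. C1s1, whose protease cleaves C4 and C2, went from 1857 to 262.2, 7.08-fold lower, a log2 difference of -2.82. C1s1 ranked 18 from the lowest of 11397 genes. C2, the protease that C1s activates, went from 668.8 to 404.3, 1.65-fold lower, and its 3 probe sets were lower together, with log2 differences from -0.73 to -0.48. The genes C1ra and C1s1 are direct neighbours in the RefSeq gene table, and both were past the 2-fold mark. The neighbouring C1q genes were all above 0.

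Bases before the annotated start of C1s1 are shown because it had the lowest log2 difference of the classical pathway. They are from RefSeq (GRCm38.p6, chr6:124542360-124542609, minus strand), the 250 bases upstream of the first of the 2 starts in the promoter table, with a match to a C/EBP motif in capitals.
C1s1: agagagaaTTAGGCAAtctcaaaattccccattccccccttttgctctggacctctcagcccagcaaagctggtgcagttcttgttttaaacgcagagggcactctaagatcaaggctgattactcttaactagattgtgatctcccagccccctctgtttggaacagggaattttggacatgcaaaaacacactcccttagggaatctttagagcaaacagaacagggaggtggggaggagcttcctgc

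The lectin pathway has soluble pattern receptors, which bind sugars, and the MASP proteases that they carry. Mbl1, a mannose-binding lectin, read 1422 in wild type against 196.5 in the knockout, 7.23-fold lower, and ranked 16 from the lowest of all measured genes, ahead of every other member. Mbl2, the other mannose-binding lectin, read 176.7 in wild type against 46.2 in the knockout, below the floor, so it was at least 1.57-fold lower. Colec11, a collectin of the same protein family, was on the other side, with 1033 and 1404, 1.36-fold higher, and a log2 difference of 0.34 on its other probe set. Fcna, ficolin A, a lectin known from macrophages, read 1849 and 1654, 1.12-fold lower.

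Upstream bases of Mbl1, Mbl2 and Colec11 are shown because these related lectins differed in direction. The Mbl1 stretch is chr14:41151206-41151455 (plus strand), the Mbl2 stretch chr19:30232678-30232927 (plus strand) and the Colec11 stretch chr12:28623331-28623580 (minus strand), all RefSeq GRCm38.p6 and each ending at the base before the start. Capitals in Mbl1 and Mbl2 mark their longest shared run, of 13 bases, at -23 to -11 and at -57 to -45 from the start. The 3 stretches held no match to any of the motifs searched.
Mbl1: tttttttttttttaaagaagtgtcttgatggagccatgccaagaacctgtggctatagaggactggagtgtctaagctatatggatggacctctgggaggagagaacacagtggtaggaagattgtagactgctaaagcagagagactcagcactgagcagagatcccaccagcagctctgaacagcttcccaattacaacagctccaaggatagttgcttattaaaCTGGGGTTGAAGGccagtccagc
Mbl2: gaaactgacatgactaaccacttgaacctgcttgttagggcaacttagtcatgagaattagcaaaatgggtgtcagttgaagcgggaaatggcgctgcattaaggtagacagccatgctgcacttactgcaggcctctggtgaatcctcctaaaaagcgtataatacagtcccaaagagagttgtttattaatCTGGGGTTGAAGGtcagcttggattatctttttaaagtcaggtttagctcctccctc
Colec11: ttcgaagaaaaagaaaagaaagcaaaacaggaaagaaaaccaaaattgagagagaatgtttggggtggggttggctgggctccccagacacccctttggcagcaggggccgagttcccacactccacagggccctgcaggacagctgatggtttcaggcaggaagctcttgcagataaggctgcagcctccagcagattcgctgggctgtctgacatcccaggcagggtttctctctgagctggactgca

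Masp2, the protease that cleaves C4 and C2 in the lectin pathway, read 636.6 in wild type against 265.1 in the knockout, 2.40-fold lower. Its other probe set read 172.8 and 117.0, 1.48-fold lower. Masp1 gave no single direction. The brightest of its probe sets went from 1052 to 573.9, 1.83-fold lower. The other measured probe sets were all higher in the knockout. They read 402.3 and 826.3, 2.05-fold higher, then 300.4 and 818.7, 2.73-fold higher, and 170.3 and 321.5, 1.89-fold higher. Taken as the median over its measured probe sets, Masp1 had a log2 difference of 0.98 in place of -0.87. The gene is known to give the alternative products MASP-1, MASP-3 and MAp44, and which of them each probe set detects was not analysed here. Masp1 held the only 2 of 52 measured member probe sets that were at least 2-fold higher.

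**Figure D2:**
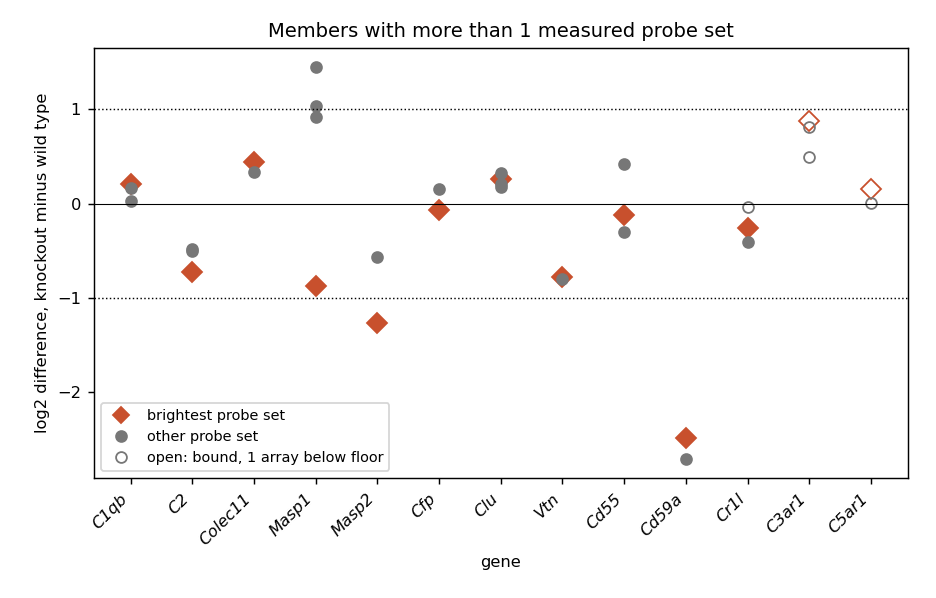
Log2 difference (knockout minus wild type) of each measured probe set of the 13 members with more than 1; red diamonds are the brightest probe sets, grey circles the others, open symbols bounds, and dotted lines the 2-fold mark. The probe sets of 10 genes lie on the same side of 0, both Cd59a probe sets lie below -2, and Masp1 has 1 probe set below 0 and 3 above.

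The alternative pathway was covered by Cfb and Cfp only. Cfb, the protease of the alternative convertase, read 2288 in wild type against 1476 in the knockout, 1.55-fold lower. It lies next to C2, a related protease gene, in the RefSeq table, and both differed by a similar amount, with log2 differences of -0.63 and -0.73. Cfp, properdin, which stabilises that convertase, read 541.1 and 517.2, and its other probe set read 182.3 and 202.6, so its probe sets differed in direction by small amounts.

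The terminal pathway had the largest share of genes past the 2-fold mark among the roles with more than 2 measured members, at 4 of 5. All 4 were lower, against 2.13% of all measured genes at least 2-fold lower. Hc, which encodes C5, read 2718 in wild type against 622.2 in the knockout, 4.37-fold lower. C8 is built of alpha, beta and gamma chains, and all of its genes were lower. C8a went from 984.4 to 186.1, 5.29-fold lower. C8b went from 1026 to 151.3, 6.78-fold lower. C8g, a lipocalin encoded apart from the others, went from 1804 to 341.8, 5.28-fold lower. The log2 differences of the C8 genes thus lay between -2.76 and -2.40. C9, the pore-forming component, read 483.4 and 323.7 and was only 1.49-fold lower. C6 read 42.2 and 104.0, both under the floor, and has no difference here.

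C8a and C8b are direct neighbours in the RefSeq table, and upstream bases are shown for C8b, the lowest of the terminal genes (GRCm38.p6, chr4:104766067-104766316, plus strand), with a match to the HNF1 half-site in capitals at -206 to -201 from the start.
C8b: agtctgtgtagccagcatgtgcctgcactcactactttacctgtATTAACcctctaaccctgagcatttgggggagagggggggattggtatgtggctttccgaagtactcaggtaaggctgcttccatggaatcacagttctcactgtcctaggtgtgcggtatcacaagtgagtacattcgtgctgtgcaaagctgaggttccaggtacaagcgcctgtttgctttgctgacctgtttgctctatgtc

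Of 5 regulators in plasma, 1 was at least 2-fold lower, against 2.13% of all measured genes. A further 3 were lower by less and 1 was higher, where 5263 of all 11397 genes were below 0. Serping1, which blocks C1r, C1s and the MASPs, read 1544 in wild type against 493.9 in the knockout, 3.13-fold lower. Vtn (vitronectin), which binds terminal complexes in plasma, read 11756 and 6845, 1.72-fold lower, with its other probe set at 1.74-fold lower. C4bp, the binding protein of C4b, read 304.2 and 200.8, 1.51-fold lower. Cfi, the protease that degrades C3b and C4b, read 10058 and 7702, 1.31-fold lower. Clu (clusterin), also a binder of terminal complexes but made by many cell types, read 2628 and 3144, 1.20-fold higher, and its 4 probe sets were all above 0, with log2 differences from 0.18 to 0.33.

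Among the regulators on cell membranes, Cd59a stood apart. CD59 is a membrane-anchored protein that blocks the terminal pore. Its gene Cd59a read 2892 in wild type against 515.1 in the knockout, 5.61-fold lower, and its other probe set read 2992 and 458.0, 6.53-fold lower. None of the remaining 3 was past the 2-fold mark. Cr1l, the rodent regulator Crry, which inactivates C3b, read 2816 and 2364, 1.19-fold lower. Cd55, decay-accelerating factor, read 714.3 and 656.1, and its probe sets differed in direction, with log2 differences of -0.30, -0.12 and 0.42. Cd46, a cofactor for factor I, read 307.5 and 293.2, 1.05-fold lower.

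The receptors for complement fragments were dim. C3ar1, the receptor of C3a, was under the floor on its 3 probe sets in wild type, at 9.89, 63.8 and 66.8, and above it in the knockout, at 197.6, 158.7 and 207.1. It was at least 1.84-fold higher on the brightest. C5ar1, the receptor of C5a, read 74.1 and 125.3, at least 1.11-fold higher. Its other probe set read 30.7 and 113.1, so there the knockout barely passed the floor of 112.6. The median log2 difference was 0.15 over the 2773 measured genes with a mean signal under 250. Such genes enter by passing the floor on either array, and those that pass in the knockout alone can only be above 0. How far this filter made that median was not tested, so it does not describe dim genes as a whole.

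Signal strength sets how widely genes scatter, so the members were also set beside genes of like signal. Between mean signals of 250 and 1000, 8 of 14 members were at least 2-fold lower, against 2.92% of 4424 genes. Between 1000 and 5000, 2 of 10 members were, against 1.27% of 3392 genes. Under 250 it was 0 of 4 members, against 2.06% of 2773 genes, and above 5000 it was 0 of 2 members, against 1.73% of 808 genes. In the ranking of all measured genes from the lowest difference, 8 members were among the first 100. From the highest, the first member was C3ar1 at rank 509, on a difference that is only a lower limit (0.88, or 1.63 with the floor at the 30th percentile).

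**Figure D3:**
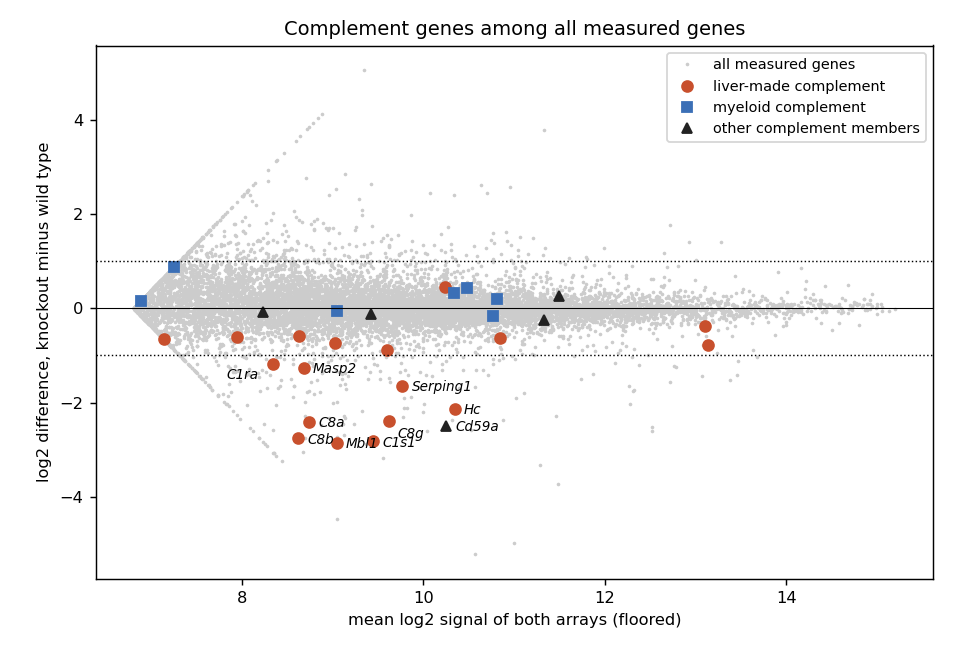
Log2 difference (knockout minus wild type) against mean log2 signal for all 11397 measured genes (grey) and the 30 measured complement members (liver-made red circles, myeloid blue squares, others black triangles); dotted lines mark 2-fold. The 10 named members lie below the lower line, and 0 lie above the upper line.

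The members were also grouped by an assigned main source, which was not measured in these samples, and the values of the groups overlapped. Among all 11397 measured genes, 2.13% were at least 2-fold lower and 3.27% at least 2-fold higher, and 5263 were below 0 and 6134 above. Of 18 measured members listed as made mainly by hepatocytes, 9 were at least 2-fold lower. On the brightest probe set 17 were below 0. Among them are Masp1, whose other measured probe sets were above 0, and Mbl2, a bound that could only be below 0. The median log2 difference of these 18 was -1.03, and Colec11 was the only one above 0. Which cells made Colec11 here was not tested. Of 7 members listed as mainly myeloid, 0 were past 2-fold either way and 5 were above 0. The median was 0.20, with a range from -0.16 (Fcna) to 0.88 (C3ar1). C3ar1 and C5ar1, counted among those above 0, are bounds. Only the knockout passed the floor for them, so their differences could only be above 0. The 5 remaining members ranged from -2.49 (Cd59a) to 0.26 (Clu). Whether the sources differ could not be tested with 1 array per genotype.

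Markers of the cells of the organ differed between the arrays as well. Of 23 measured genes for secreted proteins of hepatocytes, a list that holds no complement member, 10 were at least 2-fold lower and 0 higher, with a median log2 difference of -0.89. Their range ran from -3.73 (Ahsg) to 0.03 (Alb), and their summed signal was 352248 in wild type and 242805 in the knockout. The brightest probe sets of the list read 36369 and 35212 for Afp, 34600 and 33415 for Ttr and the values above for Alb, near the top of the signal scale. The measured probe sets of Afp had log2 differences from -0.05 to 1.36. Of 22 macrophage markers 19 were measured, 16 were above 0 and 1 passed 2-fold upwards; their median was 0.40, with a summed signal of 27139 and 33928. Cd163 and Vsig4 were under the floor on both arrays, and the brightest macrophage genes, Slc40a1, Lyz2 and Csf1r, had log2 differences of 0.17, 0.24 and 0.18. The whole macrophage list ran from -0.75 (Timd4) to 1.44 (Marco).

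All 14 granulocyte markers were above 0, with a median of 1.01, 7 genes past 2-fold and summed signals of 37809 and 78623. Of 13 mesenchymal markers 8 were past 2-fold upwards, with a median of 1.5 and summed signals of 13455 and 29447. The 11 endothelial markers had a median of 0.37 with 0 past 2-fold, and 8 of 12 erythroid markers were measured, with a median of -0.05 and 0 past 2-fold. The part of these cell type differences in the complement results was not tested.

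**Figure D4:**
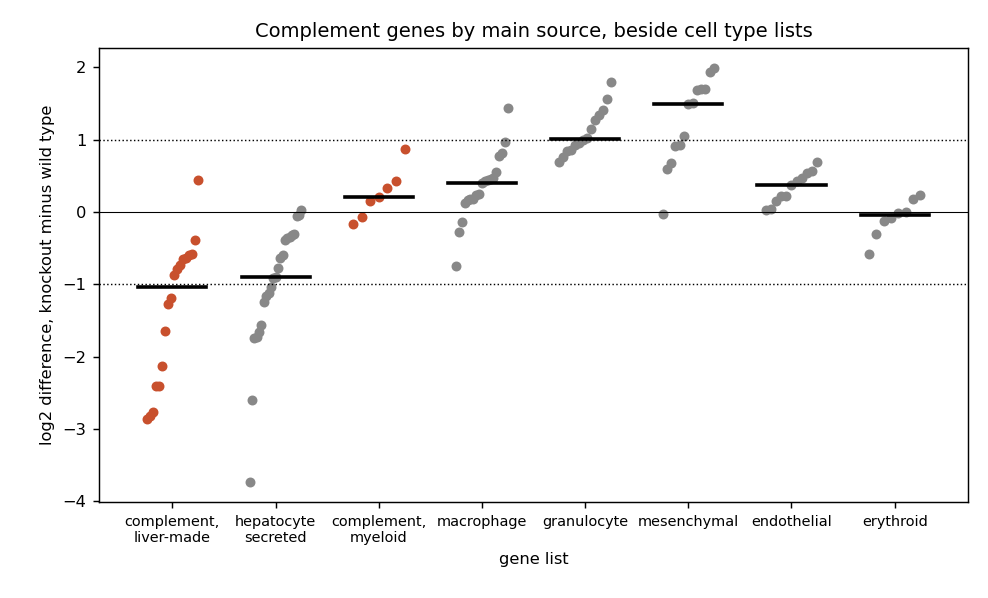
Log2 difference (knockout minus wild type) of each measured gene, bounds included, in complement genes by main source (red) and in the marker lists (grey); black bars are medians and dotted lines mark 2-fold. Liver-made complement and hepatocyte secreted genes have medians of -1.03 and -0.89, and myeloid complement and macrophage genes 0.20 and 0.40.

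Other genes of the pathway, from a list of 34 outside the members, were covered less well. Of these, 15 were measured, 2 were at least 2-fold lower, 1 was at least 2-fold higher and the median log2 difference was 0.11. Over all measured genes 2.13% were at least 2-fold lower and 3.27% higher, with a median of 0.03. The median over the listed members was -0.62. The lower genes were Crp, C-reactive protein, a plasma pentraxin that binds C1q (1786 and 876.7, 2.04-fold), and Cpn2, the non-catalytic chain of the carboxypeptidase that inactivates C3a and C5a (880.4 and 439.4, 2.004-fold). The higher gene was Fcnb, the ficolin of granulocytes, at 254.4 and 886.6, 3.49-fold, which also stands in the granulocyte list. Both lower genes sat at the 2-fold mark itself.

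The upstream stretches were searched on both strands for letters of 4 motifs of hepatic transcription factors, in 26 of the 34 members and in 27025 mouse genes with an entry. The HNF1 half-site GTTAAT stood in 7 of 26 members and in 6.52% of all stretches. It was found in 4 of the 9 members that were at least 2-fold lower and had an entry (C1ra, Hc, C8a and C8b), and in 3 of 14 other measured members (Cfp, C4bp and Vtn). The C/EBP letters TTGCNNAA stood in 3 members and in 9.55% of all stretches. The HNF4 letters CAAAGTCCA (0.381% of all) and the FOXA letters TGTTTAC (3.09% of all) stood in 0 of 26. In the stretches shown, no match overlapped another. A match is a description of letters, not of binding. Binding of these factors or of Prox1 was not measured here.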

How the data were processed

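Liver RNA of 1 wild-type and 1 Prox1 conditional knockout sample was measured on single-colour Affymetrix arrays. Per the submitters' processing notes the authors made the deposited intensity values with MAS5, whose version the labels do not state. MAS5 subtracts mismatch signal, so dim probe sets scatter. The 2% trimmed mean was 500.003 on both of these arrays of 45101 probe sets, and values were used as deposited. Control probe sets (64) were left out. The platform annotation gave 1 symbol for 34945 probe sets, several for 932 and none for 9160; only the first kind named a gene, and 0 member symbols changed in the RefSeq table (GRCm38.p6). Values under the floor, the higher of the arrays' 50th percentiles, were raised to it before log2. Each gene was taken from its brightest probe set, by mean log2 of both arrays, and counted at 2-fold. With 1 array per genotype there is no spread and no test, and the number of arrays limits the precision.

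Each member with a probe set of its own was named, as were other pathway genes at least 2-fold apart and up to 3 of the brightest genes of the hepatocyte and macrophage lists, besides range ends. Of the upstream stretches, those of the lowest members, the Mbl pair and the highest member measured on both arrays are shown. The members and lists were chosen with earlier results of these data known. Counting was tested on simulated data with large changes placed in bright genes only. Detection near the 2-fold mark or in dimmer genes was not tested. Alternatives changed the floor, the probe set rule, the scaling and the size. Software was pandas 2.3.3 and numpy 2.4.6 under Python 3.11.15, with statsmodels 0.14.6 for lowess, scipy 1.17.1, and matplotlib 3.10.9 for plots.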

Additional observations from a re-analysis of the deposited data

How the results depend on the processing

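The count of 10 members at least 2-fold lower was 9 to 11 under other floors, probe set rules and scalings, and all of the 10 except Masp2 were past the mark in each of these. Masp2 was at -0.91 as the median over probe sets, and Mbl2 joined at -1.93 with the floor at the 30th percentile or with none. The share of all genes at least 2-fold lower ran from 2.01% (floor at the 60th percentile) to 8.08% (no floor). At 1.5-fold 16 of 30 members were lower, against 5.21% of all genes, and at 3-fold 8 of 30, against 0.895%. The count of members at least 2-fold higher, 0 in the report, was 2 of 31 both at a 30th-percentile floor and without any floor. They were C3ar1 (1.63) and C6 (1.24 and 1.30). At these settings 5.34% and 12.98% of all genes were at least 2-fold higher. At 1.5-fold the count was 1 of 30, C3ar1, against 9.87% of all genes. Over the same alternatives the median over members ran from -0.66 to -0.54, over liver-made members from -1.18 to -0.85 and over myeloid members from 0.16 to 0.33. Counts over all genes moved more. They were 414 lower and 789 higher of 14784 at a 30th-percentile floor, and 1470 and 2362 of 18193 without one. Of 11397 genes, 594 and 1125 were past 1.5-fold, and 102 and 99 past 3-fold. Of single members, Masp1 turned from -0.87 to 0.98 and Cfp from -0.07 to 0.04 as the median over probe sets. C8b read -2.43 with the floor at the 60th percentile, where C3ar1 had a bound of 0.12. No paired analysis was possible because each genotype has 1 array.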
